A study of Mus musculus with 15 samples.

Results

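The genes described here encode the proteasome, and their transcript levels were measured in 15 mouse testis libraries. Members were taken by name: protein-coding genes whose symbol begins with Psma, Psmb, Psmc, Psmd or Psme and a number, leaving out the interferon-induced subunits Psmb8, Psmb9 and Psmb10 and the unrelated gene Psmc3ip. This gave 42 genes of the 23510 gene IDs in the table, of which 21143 have a name. The rule used no measured value. It also takes in Psme3ip1, which encodes a protein that binds an activator and is not itself a subunit. FPKM, the number of mapped fragments scaled for gene length and library size, is the unit throughout, and 40 of the 42 genes had a mean of at least 1 FPKM over the 15 libraries and were tested. The other 2 were Psmb11, a thymus subunit, at 0.02 to 0.11 FPKM, and Psme2b, a copy of an activator gene, at 0.03 to 1.63 FPKM.

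The proteasome is the barrel-shaped protease that degrades ubiquitin-tagged proteins. Its core particle has outer rings of alpha subunits, which form the gate, and inner rings of beta subunits, of which Psmb5, Psmb6 and Psmb7 carry the peptidase activities. The regulatory particle caps the barrel: its base holds the Psmc ATPases, which unfold substrates, and large Psmd scaffold and ubiquitin receptor subunits, and its lid holds further Psmd subunits, among them the deubiquitinase Psmd14. Male germ cells make variants of the complex in which the alpha subunit Psma8 takes the place of Psma7, and testis is rich in the activator encoded by Psme4. Interferon exchanges the catalytic beta subunits for Psmb8, Psmb9 and Psmb10 and adds the activator encoded by Psme1 and Psme2.

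All libraries come from outbred ICR mice, and the study injected virus into the testis at 5 weeks of age and collected testes 10 days later. M1, M3 and M5 (n = 3 each) received lentivirus with a mix of 3 shRNAs against the muscarinic acetylcholine receptor gene Chrm1, Chrm3 or Chrm5, and MNC (n = 3) received the control shRNA. Con (n = 3) is labelled as a control with nothing further, so injection and virus cannot be told apart between MNC and Con. Replicates are not stated to be separate animals, so p-values measure the spread between these libraries. The targeted transcripts were at 0.06 to 0.17 FPKM for Chrm1, 0.01 to 0.11 for Chrm3 and 0.19 to 0.43 for Chrm5 over the 15 libraries, too low to check the labels. In the M5 libraries, Chrm5 had 0.37, 0.22 and 0.37 FPKM, against 0.43, 0.23 and 0.43 in MNC. On the log2 scale, pairs of libraries had a median r across genes of 0.991 within a group and of 0.986 between groups. The tissue is labelled testis, while the extraction protocol in the labels names sperm. Markers of germ cells and of somatic cells were detected, with 12 Sertoli cell markers at a summed 563 to 1007 FPKM and 8 Leydig cell markers at 665 to 3221. M3 replicate 3 lay close to the M5 libraries in the genes that were higher in M5, and M5 replicate 3 had the highest summed levels of macrophage, Leydig cell, Sertoli cell and red blood cell genes, but not of T and NK cell markers. Some results are also given without these libraries. M5 against Con, the subunit shares by group, the marker sums and calls and the medians by role are given only with them. For M5 replicates 1 and 2 the labels point to the same column, so these libraries were assigned by their titles.

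Start site sequences of RefSeq (GRCm38.p6) were matched to 35 of the 42 genes, in 39 windows of 250 bases before to 50 bases after the annotated start. Psma8, Psmb1, Psmb2, Psmb7, Psmc3, Psmd3 and Psmd7 had none. Shown here, from 100 bases before to 20 bases from the start on, are 4 genes higher in M5 than in MNC and the activator gene Psme1, whose levels differed widely among libraries of a group. Capitals mark the letters TGACG, the core of a cAMP response element, in Psmd6 and Psmd12, CCAAT on both strands in Psmd14, and the reverse complement of GAAANNGAA, an interferon response type element, in Psme1. Psma4 held none of the motifs searched in the bases shown. The windows are chr9:54950759-54950878 on the plus strand, chr14:14120926-14121045 on the minus strand, chr11:107479428-107479547 and chr2:61711594-61711713 on the plus strand, and chr14:55578394-55578513 on the plus strand. Positions count from the start.
Psma4: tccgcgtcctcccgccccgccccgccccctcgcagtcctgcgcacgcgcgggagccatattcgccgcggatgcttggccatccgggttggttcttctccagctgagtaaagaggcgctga
Psmd6: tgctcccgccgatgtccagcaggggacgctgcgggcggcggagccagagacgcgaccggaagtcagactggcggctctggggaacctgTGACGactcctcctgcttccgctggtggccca
Psmd12: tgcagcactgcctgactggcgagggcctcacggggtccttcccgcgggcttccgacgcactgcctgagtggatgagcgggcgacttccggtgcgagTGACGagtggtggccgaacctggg
Psmd14: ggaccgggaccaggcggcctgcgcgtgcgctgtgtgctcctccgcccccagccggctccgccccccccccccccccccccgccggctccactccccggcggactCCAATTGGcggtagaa
Psme1: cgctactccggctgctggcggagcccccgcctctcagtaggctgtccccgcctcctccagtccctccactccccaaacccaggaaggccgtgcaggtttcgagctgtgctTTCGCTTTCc

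TGACG lay at -12 to -8 in Psmd6 and at -4 to 1 in Psmd12. CCAAT lay at 5 to 9 in Psmd14, with its reverse complement at 8 to 12, and the interferon type element at 11 to 19 in Psme1. Over the full windows and both strands, TGACG was found in 18 of the 39 windows (46.2%), against 28.6% of the windows of genes tested and 20.8% of all windows. GAAANNGAA was in 15.4% of the members' windows, 7.20% of those of genes tested and 8.56% of all. CCAAT was in 35.9%, 38.1% and 37.4%. TGACNNNGC, an antioxidant response type element that can overlap TGACG, was in 15.4%, 13.9% and 12.4%. These are descriptions of letters, and none marks a binding site.

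Levels of the subunits spanned a wide range, although the complex holds them in fixed proportion. Among alpha ring genes, Psma6 had the highest mean over the 15 libraries, 401 FPKM, and Psma1 the lowest, 24.5. The ATPase genes ran from 29.0 FPKM for Psmc6 to 352 for Psmc3, and the lid genes from 21.8 for Psmd14 to 175 for Psmd8. The 3 base scaffold and receptor genes lay at 33.2 FPKM (Psmd1), 94.1 (Psmd4, a ubiquitin receptor) and 156 (Psmd2). The genes for the chaperones of base assembly, Psmd5, Psmd9 and Psmd10, were low, at 8.27 to 9.90 FPKM. Among beta ring genes, Psmb7 had 143 FPKM and Psmb6, an obligatory catalytic subunit, 3.29 FPKM. Of RefSeq pseudogenes named after a member, Psmb6 has 2, Psmb7 has 2, and Psma5 and Psmb5 have 1 each, so those levels are uncertain. Pseudogenes under other names were not searched, so the other levels may be affected too. Exons of Psmb7, Psmc3, Psmd9 and Psmd13 overlap genes on the other strand by 215 to 1849 bases. Those of Psma5, Psmd3 and Psme1 do so by 14 to 60 bases. Psmb5 and Psme2b overlap genes on the same strand, and Psma4 and Psmd1 are described below. The level of a gene varied over all 15 libraries with a median coefficient of variation of 10.7%, against 14.8% for all genes tested.

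**Figure D1:**
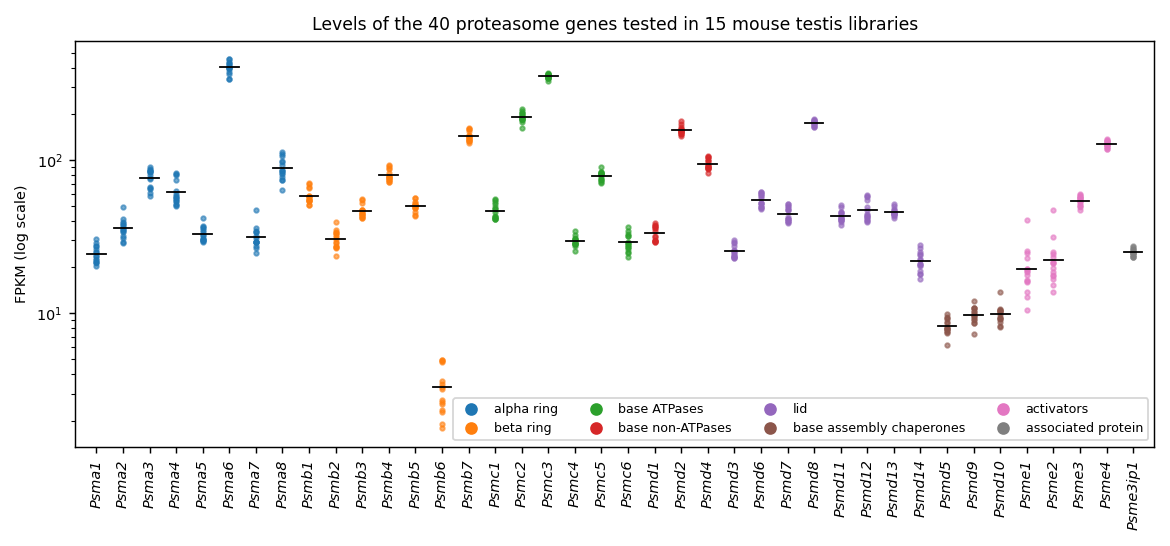
FPKM (log axis) of the 40 genes tested, 1 point for each of the 15 libraries, coloured by role, with the mean over libraries as a bar. Psma6 and Psmc3 lie at the top at 401 and 352 FPKM, and Psmb6 at the bottom at 3.29 FPKM.

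Among the 4 activator genes tested, Psme4 varied least over the libraries. Psme4, which encodes the testis-rich activator, was at 125, 129 and 125 FPKM in Con, 134, 125 and 117 in MNC, 122, 128 and 131 in M1, 133, 119 and 133 in M3, and 138, 132 and 122 in M5. Psme3, a nuclear activator, ran from 47.0 to 59.6 FPKM. Psme1, part of the interferon-linked activator, ran from 10.5 to 40.5 FPKM, and its partner Psme2 from 13.7 to 47.4. Both had their highest value in M5 replicate 3. The M5 libraries held 19.4, 24.8 and 40.5 FPKM of Psme1 and 21.6, 31.4 and 47.4 of Psme2, and the groups overlapped for both. M5 replicate 3 also had the highest summed level of 10 macrophage markers, 350 FPKM against 78.0 to 191 in the other libraries, and of 15 interferon response genes, 191 FPKM against 27.5 to 105. Its Leydig cell markers summed to 3221 FPKM, against 665 to 2047 elsewhere, its Sertoli cell markers to 1007, against 563 to 842, and its red blood cell genes to 491, against 21.9 to 167. Its T and NK cell markers summed to 24.5 FPKM, within the 7.37 to 31.7 of the other libraries. Their part in the Psme1 and Psme2 levels was not tested.

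The germ cell subunit Psma8 was the larger of the pair it forms with Psma7. Psma8 made up 75.7% ± 2.54 (SD, n = 3) of the summed FPKM of both in Con, 71.7% ± 2.26 in MNC, 72.2% ± 1.93 in M1, 78.5% ± 2.35 in M3 and 69.1% ± 3.95 in M5 (n = 3 each). M3 libraries lay above all MNC libraries, a difference of 6.81 points (two-sided exact permutation p = 0.1, the smallest that 3 against 3 allow, and 0.5 after adjustment over 5 comparisons). The other comparisons had exact permutation p-values of 0.4 for M5 against MNC, 0.7 for M1 against MNC, 0.2 for MNC against Con and 0.317 for the 12 lentivirus libraries against Con. With 3 against 3 libraries this test cannot pass 0.05, so these shares are given as values.

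**Figure D2:**
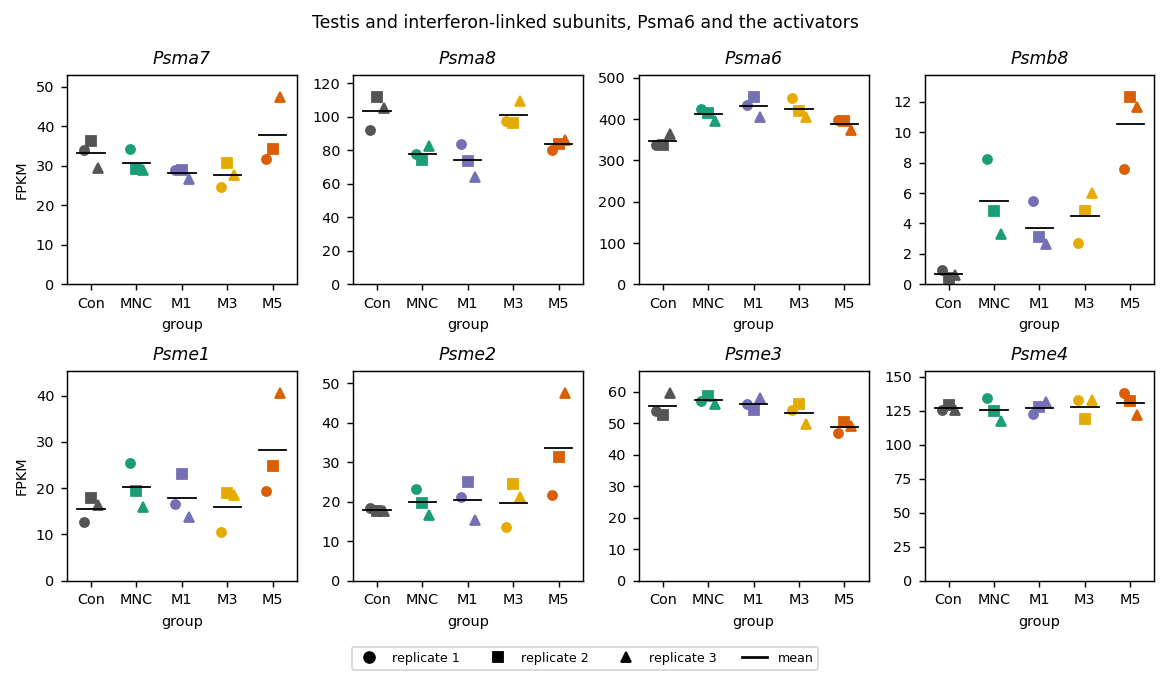
FPKM per library, by group, of the exchangeable subunits Psma7, Psma8 and Psmb8, of Psma6 and of the 4 activator genes, with replicates as symbols and the group mean as a bar. Psmb8 is at 0.44 to 0.97 FPKM in Con and at 7.57 to 12.3 in M5, and Psme1 and Psme2 peak in M5 replicate 3.

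The comparison of M5 with MNC addresses what goes along with the shRNAs against Chrm5. In M5, 7 proteasome genes rose and none fell: the alpha ring genes Psma3 and Psma4, the ATPase gene Psmc6, the scaffold gene Psmd1 and the lid genes Psmd6, Psmd12 and Psmd14. The rises ran from 0.28 to 0.54 on the log2(FPKM + 1) scale. These 7 are 17.5% of the 40 tested, where 5.65% of the 14514 genes tested were called (limma, adjusted p under 0.05) and 2.76% were called higher. Of the 40 genes 31 had a higher mean in M5 and 9 a lower one, and their median difference was 0.16, against 0.03 for all genes. M5 and MNC libraries did not overlap for 19 genes, 14 higher and 5 lower in M5, where 32.1% of all genes did not overlap. The count changed with single libraries: 5 genes were called without M5 replicate 3 (median difference 0.10), 4 without MNC replicate 1, and 0 without M5 replicate 1, M5 replicate 2, MNC replicate 2 or MNC replicate 3. Calls over all genes changed too. They were 6.52% without M5 replicate 3, 2.49% without MNC replicate 1, and 0.241% to 0.634% in the fits with 0 proteasome genes. None was called when each library was centred on its median, where calls over all genes went from 820 to 182 and the median difference of the 40 genes was 0.12, against -0.01 for all genes. None was called with the replicate number as a block either, where 14 of all genes were called and the median stayed at 0.16. Fewer cells of a type and less RNA per cell cannot be told apart in whole testis.

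Psma4, an alpha ring gene, had 80.6, 79.6 and 81.9 FPKM in M5 and 60.3, 54.0 and 51.6 in MNC. This is a log2 difference of 0.54 (SE 0.07) with a limma adjusted p = 0.0179. All 3 M5 libraries also lay above every Con, M1 and M3 library. M3 replicate 3 was next, at 74.3 FPKM, where M3 replicates 1 and 2 had 50.6 and 57.4. The exons of Psma4 overlap 114 bases of AY074887 on the other strand, and the counting is not stated to use strand.

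Psmd12, a lid gene, had 58.0, 54.9 and 58.6 FPKM in M5 against 42.4, 40.9 and 39.6 in MNC, a difference of 0.47 (SE 0.06, limma adjusted p = 0.0162). Con libraries had 47.2, 49.6 and 44.2 FPKM, M1 libraries 42.7 to 43.9, and M3 libraries 40.1, 40.9 and 57.5. The M5 range thus held M3 replicate 3 and no other library.

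Psmd14, the deubiquitinase of the lid, had 26.8, 24.96 and 27.9 FPKM in M5 against 20.6, 17.9 and 18.8 in MNC, a difference of 0.45 (SE 0.08, limma adjusted p = 0.0329). Psmc6, an ATPase, had 34.3, 32.1 and 36.8 FPKM against 27.9, 24.8 and 23.2, a difference of 0.43 (SE 0.09, limma adjusted p = 0.0456). For both, the M5 libraries were above all Con libraries, which had 22.4 to 23.9 FPKM of Psmd14 and 28.9 to 32.1 of Psmc6, in the latter by a margin of the second decimal.

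Psma3, an alpha ring gene, had 84.5, 87.2 and 89.7 FPKM in M5 against 64.9, 66.1 and 66.0 in MNC, a difference of 0.40 (SE 0.05, limma adjusted p = 0.0165). Psmd1, the scaffold gene, had 37.5, 34.3 and 38.9 FPKM against 29.5, 29.5 and 29.1, a difference of 0.32 (SE 0.07, limma adjusted p = 0.0446). Psmd6, a lid gene, had 61.6, 61.5 and 60.1 FPKM against 52.0, 49.3 and 48.8, a difference of 0.28 (SE 0.05, limma adjusted p = 0.0366). For these 3 the M5 libraries overlapped Con, which had 76.2 to 84.9 FPKM of Psma3, 36.1 to 37.3 of Psmd1 and 56.4 to 60.6 of Psmd6. Psmd1 shares exon sequence with Gm21972 and Htr2b, so its reads may be split.

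**Figure D3:**
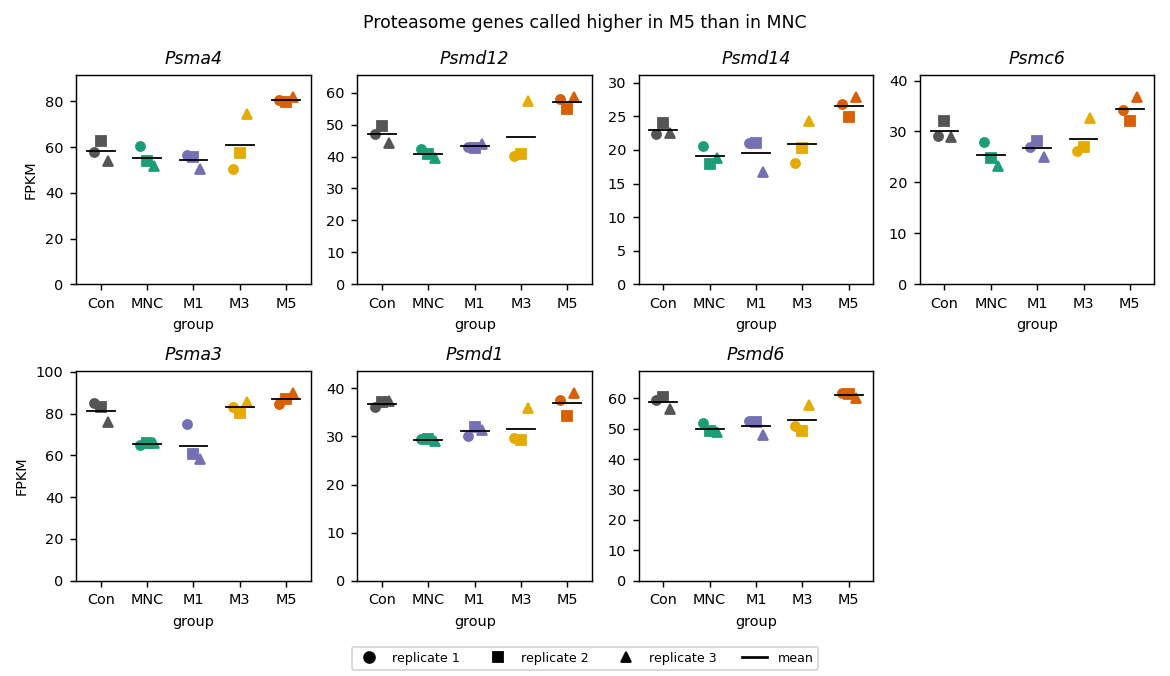
FPKM per library and group of the 7 genes called higher in M5 than in MNC, with replicates as symbols and the group mean as a bar. M3 replicate 3 (triangle) lies above M3 replicates 1 and 2 in all 7 panels, and the M5 libraries are above every Con library for Psma4, Psmd12, Psmd14 and Psmc6.

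Set against Con in place of MNC, M5 had 6 of the 40 genes called, 15%, where 21.7% of all genes were called. Higher in M5 were 2 of the 7 genes above: Psma4, with a difference of 0.47 (limma adjusted p = 0.00702), and Psmd12, with 0.28 (limma adjusted p = 0.0244). Psmd14 differed by 0.20, Psmc6 by 0.19, Psma3 by 0.10, Psmd6 by 0.05 and Psmd1 by 0.00 (limma adjusted p = 0.0703 to 0.983). Psma8, Psmb5, Psmc5 and Psmd2 were lower in M5 than in Con, by 0.20 to 0.30.

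M3 replicate 3 lay above M3 replicates 1 and 2 for all 7 genes, and above the 11 other libraries outside M5 for 5 of them, where this held for 11.3% of all genes tested. The 7 were picked as called higher in M5 than in MNC, so these shares are of unlike sets. The share over all genes so called was not computed, so this is not shown to be particular to proteasome genes. On a scale with the MNC mean at 0 and the M5 mean at 1, it lay from 0.69 to 1.02. The reason was not tested.

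The remaining 33 genes tested did not pass. Psma7, the ubiquitous partner of Psma8, had 31.8, 34.1 and 47.4 FPKM in M5 and 34.2, 29.2 and 29.1 in MNC, with overlapping groups and a difference of 0.27 (limma adjusted p = 0.337), which was 0.10 without M5 replicate 3. Psma8 had 80.5, 84.1 and 86.4 FPKM against 77.6, 74.4 and 82.4 (limma adjusted p = 0.363). Of the catalytic genes, Psmb5 had 43.3, 43.7 and 48.4 FPKM against 51.1, 51.2 and 53.2, below all MNC libraries (difference -0.20, limma adjusted p = 0.118), and Psmb7 had 160, 159 and 154 FPKM against 141, 135 and 129, above them (difference 0.22, limma adjusted p = 0.0673). Psmb6 had 2.65, 1.78 and 3.46 FPKM against 2.36, 3.29 and 3.20. Psme3 was below all MNC libraries, with 47.0, 50.5 and 49.3 FPKM against 57.1, 58.7 and 56.3 (difference -0.23, limma adjusted p = 0.0619), while the differences of Psme1 and Psme2, 0.42 and 0.67, were 0.14 and 0.39 without M5 replicate 3.

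By role, 7 of 8 alpha ring and 7 of 8 lid genes had a higher mean in M5, with medians of 0.27 and 0.22. The ATPase genes divided 3 against 3, with Psmc2 and Psmc5 lower and apart from MNC (differences -0.15 and -0.16, neither called) and a median of 0.05, and the beta ring had a median of 0.07 with 5 of 7 higher. Against MNC, M3 had 6 of 8 alpha ring and 7 of 8 lid genes higher, with smaller medians of 0.076 and 0.078. M1 had 2 of 8 and 6 of 8 higher, with medians of -0.029 and 0.019.

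Of 34 other proteasome genes listed, 2 were called in M5 against MNC (5.88%, near the 5.65% of all genes). Sem1, a small lid subunit, had 129, 127 and 123 FPKM in M5 against 79.0, 69.8 and 76.8 in MNC, a difference of 0.74 (limma adjusted p = 0.006). Uchl5, a deubiquitinase, had 46.8, 47.0 and 44.3 FPKM against 26.2, 27.0 and 27.3, a difference of 0.76 (limma adjusted p = 0.00351). M3 replicate 3 again had M5-like levels, 116 and 44.3 FPKM. Psmb8 had 7.57, 12.3 and 11.6 FPKM in M5 and 8.21, 4.85 and 3.32 in MNC (difference 0.88, limma adjusted p = 0.137), and Psmb9 and Psmb10 differed by -0.01 and 0.32 and were not called. Without M5 replicate 3 the differences were 0.80 for Psmb8, 0.09 for Psmb9 and -0.11 for Psmb10, none called, and 0.76 for Sem1 and 0.78 for Uchl5, both called. Sem1 was not called without M5 replicate 2 (difference 0.74, limma adjusted p = 0.0511), and neither gene was called with the replicate block.

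Other measures also differed between M5 and MNC. Of 12 spermatocyte markers, none at 0 in every library, 11 had a higher mean in M5 than in MNC and 2 rose, Sycp1 by 0.79 and Hormad1 by 0.70 (limma adjusted p = 0.0125 and 0.00634). These 2 are 16.7% of the 12, where 5.65% of all genes were called. Against MNC, M3 also had 11 of the 12 markers higher (median 0.10, against -0.04 for all genes, 0 called). M1 had 5 of the 12 higher. The 12 markers summed to 1008 to 1031 FPKM in MNC, 1125 to 1195 in M5 and 1241 to 1326 in Con. Sycp1 had 78.2 to 84.7 FPKM in M5 and 59.25, 53.68 and 81.16 in M3. Hormad1 had 91.3 to 102 in M5 and 65.4, 59.42 and 85.02 in M3, replicate 3 being last in both. The 7 red blood cell genes summed to 21.9 to 35.5 FPKM in MNC and 148 to 491 in M5. Across 13364 genes, the GC content of the transcript and the difference between M5 and MNC had a Spearman rho of -0.455, and -0.356 over the 40 proteasome genes. These points on M5 and MNC share the same 6 libraries. The GC relation was not particular to M5. Against MNC, rho was -0.381 for M3 (-0.402 over the 40 genes) and -0.248 for M1 (-0.171). With the GC trend removed, Psma4 (0.46) and Psmd12 (0.38) were still called in M5 against MNC and the median of the 40 genes was 0.10. The part of the marker changes in the result was not tested.

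**Figure D4:**
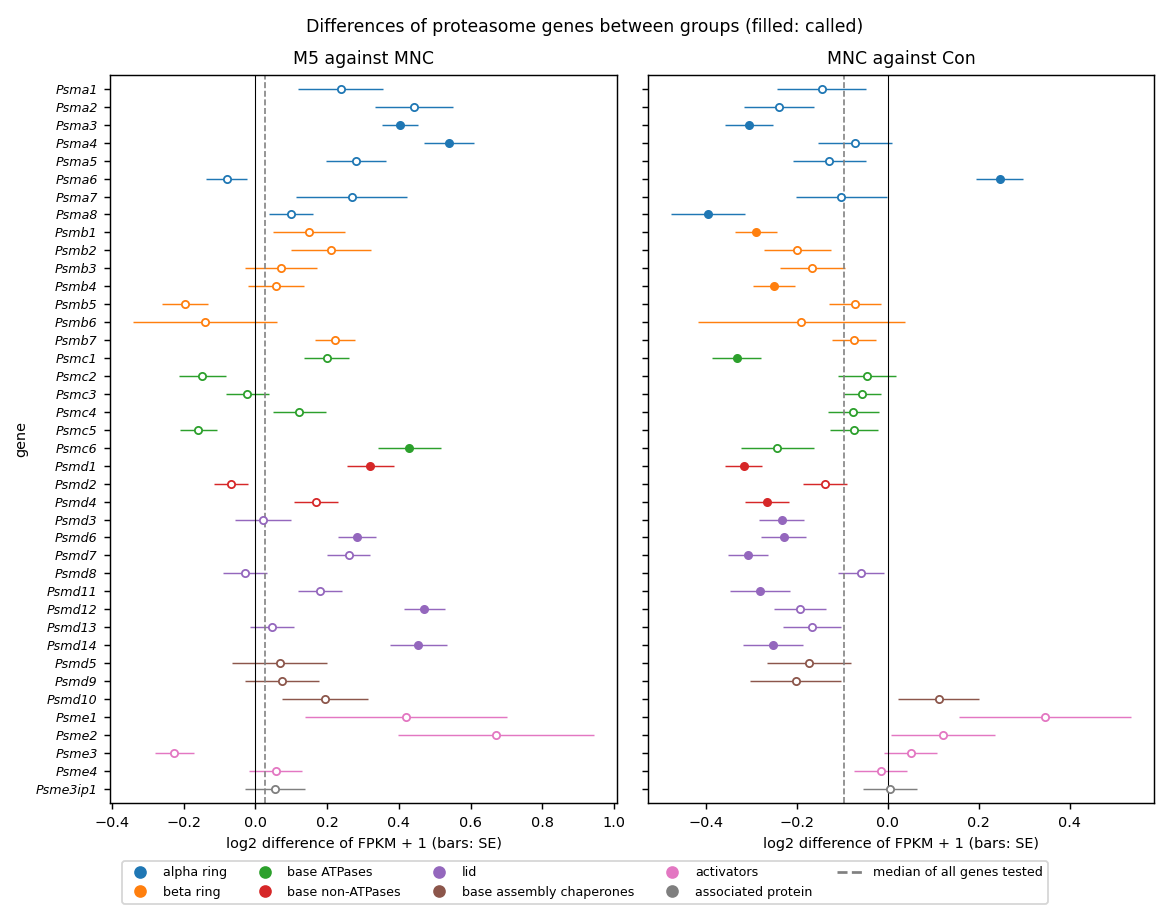
Differences in log2(FPKM + 1) for the 40 genes tested, M5 minus MNC and MNC minus Con, with standard errors as bars, filled points for genes called by limma and the median of all genes tested as a dashed line. Filled points lie to the right for M5 against MNC (7 genes) and, apart from Psma6, to the left for MNC against Con (12 genes).

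The comparison of MNC with Con addresses what the control virus goes along with. In MNC, 12 proteasome genes fell and Psma6 rose. The 12 included 5 of the 8 lid genes (Psmd3, Psmd6, Psmd7, Psmd11 and Psmd14), both Psmd1 and Psmd4 of the base, the ATPase gene Psmc1, the alpha ring genes Psma3 and Psma8 and the beta ring genes Psmb1 and Psmb4. The 13 calls are 32.5% of the 40 tested, beside 20.4% of all genes (limma), of which 12.4% were called lower and 8.03% higher. The median difference was -0.17, against -0.10 for all genes. Centring libraries on their median moved the median of all genes from -0.10 to -0.01, left 5 genes called, 12.5% of the 40 beside 12.9% of all genes (Psma6 higher, Psma3, Psmc1, Psmd1 and Psmd7 lower), and changed the split of means from 6 higher and 34 lower to 15 and 25. The count was 0 without Con replicate 1 or Con replicate 2, 3 without MNC replicate 2, 4 without MNC replicate 3, 9 without Con replicate 3 and 16 without MNC replicate 1. In that order, 0.0551%, 1.34%, 4.4%, 7.11%, 9.25% and 17.2% of all genes were called.

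Psma8, the germ cell alpha subunit, had 92.5, 112 and 106 FPKM in Con and 77.6, 74.4 and 82.4 in MNC, a fall to 0.756 of the Con mean (difference -0.40, SE 0.08, limma adjusted p = 0.0278). Psma6, the most abundant alpha ring transcript, went the other way, with 338, 338 and 364 FPKM in Con and 425, 415 and 394 in MNC (difference 0.25, SE 0.05, limma adjusted p = 0.03). It was also above all Con libraries in every M1, M3 and M5 library, at 373 to 454 FPKM.

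Psmc1, an ATPase, had 55.2, 55.1 and 53.0 FPKM in Con against 45.8, 42.1 and 41.3 in MNC (difference -0.33, limma adjusted p = 0.0209). Psmd1 had 36.1, 37.1 and 37.3 FPKM against 29.5, 29.5 and 29.1 (difference -0.32, limma adjusted p = 0.0169). Psmd7, a lid gene, had 50.2, 51.4 and 49.3 FPKM against 41.1, 41.2 and 39.1 (difference -0.31, limma adjusted p = 0.0175). In each, the lowest Con library was above the highest MNC library. The groups did not overlap for 20 of the 40 genes, 19 lower and 1 higher in MNC, where 46.5% of all genes did not overlap. Psma3 fell by 0.31, Psmb1 by 0.29, Psmd11 by 0.28, Psmd4 by 0.27, Psmb4 and Psmd14 by 0.25 and Psmd3 and Psmd6 by 0.23 on the log2 scale.

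Psma3, Psmd1, Psmd6 and Psmd14 were called in both comparisons, lower in MNC than in Con and higher in M5 than in MNC. These comparisons share the MNC libraries, so the values are set side by side: differences of -0.31, -0.32, -0.23 and -0.25 for MNC minus Con, and of 0.40, 0.32, 0.28 and 0.45 for M5 minus MNC.

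Of the 3 interferon-induced subunit genes, Psmb8 and Psmb10 rose in MNC. Psmb8, which replaces Psmb5, had 0.97, 0.44 and 0.61 FPKM in Con and 8.21, 4.85 and 3.32 in MNC (difference 1.89, SE 0.28, limma adjusted p = 0.0183). Psmb10, which replaces Psmb7, had 2.75, 3.44 and 2.46 FPKM against 7.59, 4.64 and 5.69 (difference 0.83, limma adjusted p = 0.0294). Psmb9, which replaces Psmb6, had 1.73, 0.97 and 0.23 FPKM against 8.98, 1.51 and 1.29, with overlapping groups (limma adjusted p = 0.245). Psmb8 was not called without Con replicate 1 or Con replicate 2 (differences 2.01 and 1.79), Psmb10 was not called without Con replicate 1, 2 or 3 or MNC replicate 3 (0.75 to 0.93), and neither was called with the replicate block. As a share of Psmb5 plus Psmb8, Psmb8 made up 1.21% ± 0.453 (SD, n = 3) in Con, 9.46% ± 4.04 in MNC, 6.77% ± 2.41 in M1, 8.51% ± 2.69 in M3 and 18.8% ± 3.60 in M5. Psme1 and Psme2 differed by 0.35 and 0.12 between MNC and Con and were not called. All 12 of the interferon response genes tested, of 16 listed, rose in MNC, and their list summed to 27.5 to 29.3 FPKM in Con and 66.7 to 105 in MNC. Without Con replicate 1, 5 of all genes were called higher, and with the replicate block 8, so these 12 calls do not all hold there. Their calls in those fits are not given. Of all genes tested, 20.4% were called in MNC against Con, 12.4% lower and 8.03% higher. Of the 34 other proteasome genes listed, the interferon-induced subunits among them, 11 were called (32.4%). Of 8 other subunit and associated protein genes tested, 5 fell in MNC and none rose: the deubiquitinase gene Uchl5 by 0.32, the deubiquitinase gene Usp14 by 0.31, Zfand5 by 0.24, Ecpas by 0.21 and the ubiquitin ligase gene Ube3c by 0.18 on the log2 scale (limma adjusted p = 0.0181 to 0.0446). Of 6 core assembly and inhibitor genes, the inhibitor gene Psmf1 rose by 0.57 and the maturation factor gene Pomp fell by 0.25 (limma adjusted p = 0.0238 and 0.0331). Uchl5 was not called without Con replicate 1 or Con replicate 2, where 8 and 195 of all genes were called. For Usp14, Zfand5, Ecpas, Ube3c, Psmf1 and Pomp, fits without single libraries are not given.

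Germ cell markers also differed between MNC and Con. All 12 spermatocyte markers had a lower mean in MNC and 8 fell, where 12.4% of all genes were called lower. All 12 elongating spermatid markers had a higher mean and 7 rose, where 8.03% were called higher. Of all genes, 8 were called without Con replicate 1 and 195 without Con replicate 2. Marker calls in those fits are not given. The elongating spermatid markers summed to 13670 to 25208 FPKM in Con and 27515 to 34012 in MNC. Together the 42 proteasome genes made up 0.613% to 0.649% of the summed FPKM of a Con library and 0.549% to 0.581% of an MNC library. The part of these markers in the subunit levels was not tested.

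With all 12 lentivirus libraries set against Con, 16 of the 40 genes were called, Psma6 higher and 15 lower. That is 40% of the 40, near the 34.2% of all genes called (22.4% lower, 11.8% higher), and the median difference of -0.13 was near that of all genes, -0.10. The largest falls were those of Psma8 (-0.30, limma adjusted p = 0.00908), Psmc1 (-0.28, limma adjusted p = 0.000995), Psmb1 (-0.26), Psmd3 (-0.25) and Psmb4 (-0.24), and Psma6 rose by 0.25 (limma adjusted p = 0.00186). Psma6, Psmc1, Psmd2, Psmd3 and Psmd4 had no overlap between the 3 Con and the 12 other libraries, where 17.8% of all genes had none. Centring on library medians moved the median of all genes from -0.10 to 0.01, left 6 genes called (15% of the 40, beside 22.5% of all genes) and made the split of means 19 higher and 21 lower.

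**Figure D5:**
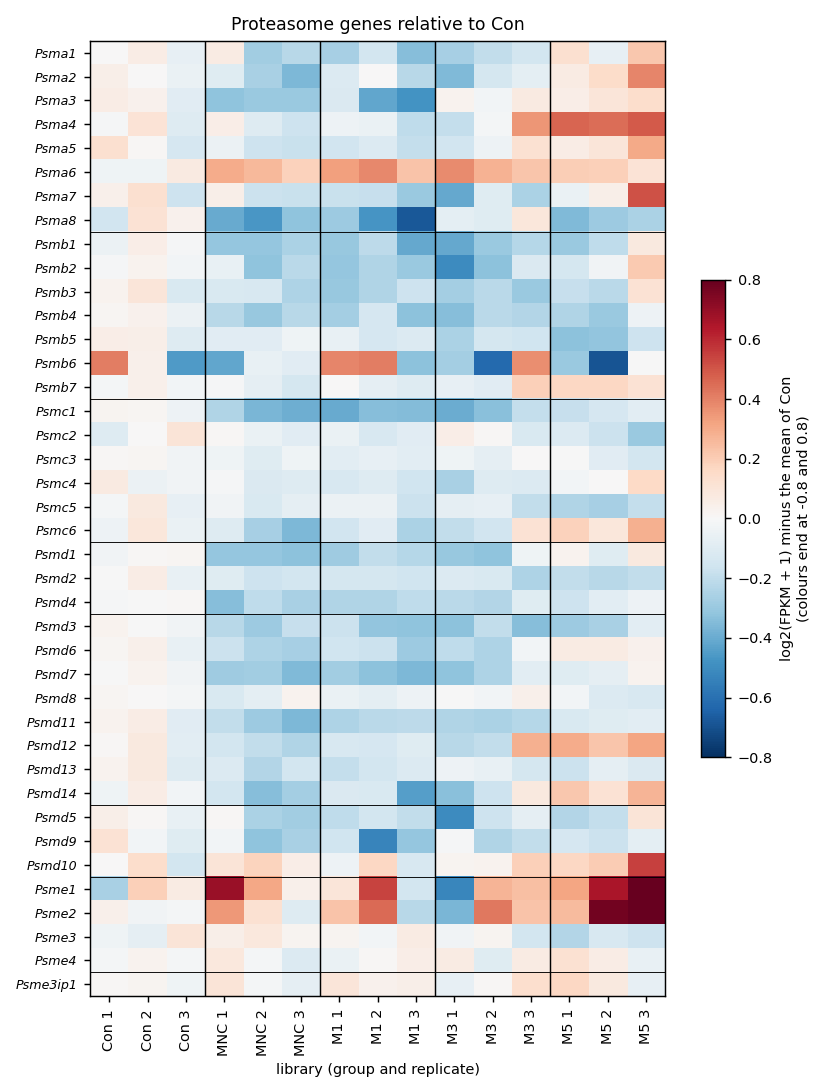
Colour gives log2(FPKM + 1) of each of the 40 genes tested, minus its mean in Con, in each of the 15 libraries, with genes ordered by role and libraries by group. Psma6 is above Con in the 12 lentivirus libraries, and M3 replicate 3 is above the other M3 libraries for the 7 genes called higher in M5 than in MNC.

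M1 and M3 showed no called proteasome gene against MNC. For M1, limma called 0 of the 40 genes and 0 of all 14514 (0%), and 0 of the 40 had p under 0.05 before adjustment. Closest were Psmd1 (difference 0.08), Psmd12 (0.07) and Psmb6 (0.35), with limma adjusted p = 0.824, 0.827 and 0.838. For M3, limma called 0 of the 40 and 0.00689% of all genes, and 2 of the 40 had p under 0.05 before adjustment. These were Psma3, with 83.1, 80.2 and 85.6 FPKM in M3 against 64.9, 66.1 and 66.0 in MNC (difference 0.33, limma adjusted p = 0.44), and Psma8, with 97.7, 96.5 and 110 FPKM against 77.6, 74.4 and 82.4 (difference 0.37, limma adjusted p = 0.518). M3 and MNC libraries did not overlap for 4 of the 40 genes, 2 higher and 2 lower in M3, Psma3 and Psma8 being the higher ones. Of all genes, 17.1% did not overlap. Psmb5 had the next lowest p (difference -0.12, limma adjusted p = 0.532). The count was also 0 without M3 replicate 3, where 0 of all genes were called.

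The knockdown groups were also compared with each other. M5 against M1 had 6 genes called, all higher in M5, which is 15% of the 40 beside 6.75% of all genes called and 3.23% called higher. They were Psma4 (80.7 ± 1.15 FPKM in M5 and 54.2 ± 3.34 in M1, SD, n = 3 each, limma adjusted p = 0.00847), Psmd12 (57.1 ± 2.01 and 43.2 ± 0.611, limma adjusted p = 0.0121), Psmc6, Psmd6, Psmd7 and Psmc1. Psmd7 had 47.0, 47.8 and 51.4 FPKM in M5 and 41.4, 39.9 and 39.0 in M1, and Psmc1 had 47.7, 49.6 and 51.3 against 41.0, 42.8 and 42.7. The count was 1 without M1 replicate 2 or M1 replicate 3, 2 without M1 replicate 1, M5 replicate 1 or M5 replicate 2, and 9 without M5 replicate 3. In that order, 1.43%, 0.586%, 0.386%, 1.76%, 0.93% and 11.6% of all genes were called. Centring left 1, beside 1.74% of all genes. M5 against M3 had 0 of the 40 called by limma, 12 with an unadjusted p under 0.05 and 0.0138% of all genes called. Without M3 replicate 3, Psma4 (difference 0.57) and Psmd12 (0.49) were called, both with a limma adjusted p = 0.0383. That is 5% of the 40, where 1.3% of all genes were called. Centring moved the median of all genes from 0.06 to -0.05 here, and the split of the 40 means from 29 higher and 11 lower to 22 and 18. The lowest p with all libraries were those of Psma8 (-0.27), Psma2 (0.39) and Psma1 (0.30), each with a limma adjusted p = 0.338. M1 against M3 had 0 of the 40 and 0% of all genes called by limma, with 2 unadjusted p under 0.05: Psma8 (-0.45) and Psma3 (-0.36). Psma5 and Psmb5 followed with unadjusted p-values above 0.05.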

How the data were processed

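RNA of 15 testis libraries was sequenced as poly(A) fragments, and reads were mapped to reference genes by the authors with SOAPaligner. The submitters' processing notes name mm10. The authors deposited 1 table of FPKM values to 2 decimals, while their methods also name RPKM. Read counts were not used, so the depth is unknown, and summed FPKM ran from 470243 to 513817 per library. Entrez IDs were named from RefSeq (GRCm38.p6) for 89.9% of IDs.

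Values were analysed as log2(FPKM + 1), which understates changes of low genes. Genes with a mean of 1 FPKM or more (14514) were tested with limma 3.58.1 (trend, two-sided) in R 4.3.3, in fits of the groups compared, with Benjamini-Hochberg adjustment over the genes tested and calls at 0.05. The lentivirus comparison set the mean of 4 group means against Con. Shares of Psma8 were compared by exact permutation. The fit was tested on simulated data. Same-numbered libraries did not deviate together in all pairs of any comparison.

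Named genes were Psma7, Psma8, Psmb5, Psmb6, Psmb7 and Psme1 to Psme4, up to 5 called higher and 5 lower per comparison or, with under 3 called, the 3 with the lowest p, and Psmb8 to Psmb10. Others named were chosen after their values were seen. Members and lists were chosen with earlier results of these data known. Alternatives were a pseudocount of 0.1, a filter at 0.1 or none, median centring, a replicate block, all 5 groups in 1 fit, Con as control, the lentivirus libraries as 1 group, and leaving out each library. Motifs were searched in RefSeq windows, and GC content was taken from GENCODE transcripts. Tables were handled in pandas 2.3.3 with numpy 2.4.6 under Python 3.11.15.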

Additional observations from a re-analysis of the deposited data

Results flagged for a closer look

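M5 and M1 were each compared with the same MNC libraries. A direct limma test of M5 against M1, without MNC, called 6 of the 40 genes (15%, beside 6.75% of all genes). On the log2(FPKM + 1) scale the M5 minus M1 differences were 0.57 for Psma4, 0.40 for Psmd12, 0.35 for Psmc6, 0.27 for Psmd7, 0.26 for Psmd6 and 0.23 for Psmc1 (limma adjusted p = 0.00847 to 0.0474). Of the 6, Psma4, Psmd12, Psmc6 and Psmd6 were also called in M5 against MNC.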

How the results depend on the processing

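For M5 against MNC (7 genes called), the count was 4 without a filter, 0 when centred, 0 with the replicate block, 16 with all 5 groups in 1 fit (14 higher, 2 lower), 2 with the GC trend removed, an alternative chosen after seeing the data, and 0 to 5 when single libraries were left out. The shares of all genes called were, in that order, 1.95%, 1.25%, 0.0965%, 16.7%, 0.718% and 0.241% to 6.52%. For MNC against Con (13), it was 5 centred, 0 with the replicate block, 7 without the GC trend and 0 to 16 with single libraries left out. Here 12.9%, 0.0689%, 16.4% and 0.0551% to 17.2% of all genes were called. For the lentivirus groups against Con (16), it was 6 centred, 9 with the libraries as 1 group, 7 without the GC trend and 8 to 17 with single libraries left out. Here 22.5%, 27.3%, 27.9% and 19% to 44.6% of all genes were called. For M5 against M1 (6), it was 3 with the filter at 0.1, 2 without a filter, 1 centred, 0 with the replicate block, 10 with all 5 groups, 1 without the GC trend and 1 to 9 with single libraries left out. Here 3.8%, 2.74%, 1.74%, 0.269%, 9.51%, 0.868% and 0.386% to 11.6% of all genes were called. For M5 against M3 (0), leaving out single libraries gave 0 to 2, beside 0% to 1.3% of all genes. With Con as the control, M1 had 17 called (42.5%, beside 34.2% of all genes) and M3 had 7 (17.5%, beside 22.1%), where 0 were called against MNC.

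Medians over the 40 genes moved for M5 to -0.0219 with Con as control and 0.10 without the GC trend, and lay between 0.10 and 0.20 when single libraries were left out. With Con as control they were -0.15 for M1 and -0.15 for M3. For MNC against Con the median was -0.0754 centred and -0.085 without the GC trend, for the lentivirus groups -0.0211 and -0.0364. Centred, M5 minus M1 had a median of 0.11 and M5 minus M3 one of 0.0368.

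Single values turned sign as follows. With Con as control, Psmd1 (-0.24) and Psmd12 (-0.12) in M1 and Psma8 (-0.027) in M3 turned. Psmb5 in M3 was 0.0026 without the GC trend, and Psma7 in the lentivirus groups 0.0032 centred. For M5 against MNC, Psmb10 (0.32) ran from -0.11 without M5 replicate 3 to 0.75 without M5 replicate 1, and Psmb9 (-0.01) was 0.10 with the pseudocount of 0.1, 1.03 with Con as control, 0.0762 without the GC trend, 0.087 without M5 replicate 3 and from -0.39 (without MNC replicate 3) to 0.68 (without MNC replicate 1) with single libraries left out. The Psma8 share of Psma7 plus Psma8, M1 against MNC, which differed by 0.513 points, ranged with single libraries left out from -0.645 points (without MNC replicate 1) to 1.62 points (without MNC replicate 3), and was -0.53 without M1 replicate 1. The causes were not tested. Same-numbered libraries of M5 and MNC had residual correlations of 0.10, 0.18 and -0.05. The titles do not state what libraries of the same number share, so whether the block pairs related libraries is unknown. FPKM without counts gives no interval for low genes such as Psmb6, Psmb9 and Psme2b.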

Other observations

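Of 8 genes for regulators of proteasome gene transcription, none was called in M5 against MNC or in MNC against Con. Over the lentivirus groups 2 of the 8 were called (25%, where 34.2% of all genes were). Ngly1, whose product deglycosylates the transcription factor Nfe2l1, rose by 0.21 and Nfyc, a subunit of the CCAAT-binding factor, fell by 0.22 on the log2 scale (limma adjusted p = 0.00396 and 0.036).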
